A study of Homo sapiens with 6 samples.

Results

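The transcribed spacers, the intergenic spacer and the 5.8S genes of the ribosomal DNA on chromosome 21 were examined in RNA crosslinked to 2 HSP70 chaperones. The members are all deposited peaks on chromosome 21 that start below position 9000000 and overlap none of 8 annotated 18S and 28S genes: RNA18SN1, RNA18SN2, RNA18SN3, RNA18SP5, RNA28SN1, RNA28SN2, RNA28SN3 and LOC110467529. They number 1059 of the 9974 peaks in 4 lists. Of the 1059, 974 lay in or beside a ribosomal DNA repeat and 85 on the short arm outside the annotated repeats, so the rule takes in more than the spacers.

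The study mapped RNA bound by tagged proteins with FLASH-seq, in which ultraviolet light fixes RNA to protein in living cells and the purified complexes are trimmed with RNase I and sequenced. All libraries came from HEK293 Flp-In T-Rex, an established human embryonic kidney line that carries a single site for a tetracycline-controlled transgene. The compared groups were cells expressing 3xFLAG-HBH-tagged HSPA1A, the stress-inducible HSP70, and cells expressing 3xFLAG-HBH-tagged HSPA8, its constitutive relative, each induced with 1 µg/ml tetracycline and each with 2 biological replicates. The tagged protein was therefore a transgene product made on top of the cells' own chaperones. Libraries of tagged GFP were not analysed here, so no value has a background from a control bait.

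Ribosomal DNA is a tandem repeat on the short arms of the acrocentric chromosomes. RNA polymerase I transcribes each unit into a 45S precursor that holds, in order, the 5′ external transcribed spacer (5′ ETS), 18S, internal transcribed spacer 1 (ITS1), 5.8S, internal transcribed spacer 2 (ITS2), 28S and the 3′ external transcribed spacer (3′ ETS). The spacers are cut away and degraded as ribosomes mature in the nucleolus, and the mature RNAs remain. The intergenic spacer separates one unit from the next and holds the promoter and terminators.

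The RefSeq gene table for GRCh38.p14 places 3 full copies in this stretch: RNA45SN2 at chr21:8205988-8219302, RNA45SN3 at chr21:8389035-8402343 and RNA45SN1 at chr21:8433222-8446572. In RNA45SN1 the 5′ ETS is 3654 bases long, ITS1 1077, 5.8S 157, ITS2 1167 and the 3′ ETS 361. A partial copy consists of RNA18SP5, RNA5-8SP10 and LOC110467529 and has no annotated 45S gene, so its 5′ ETS was taken to be as long as that of RNA45SN2, 3643 bases. The copies are near-identical. A read from one can match the others, and the treatment of such reads is not given in the sources used here, so peaks on different copies are not independent and were never counted as replicates.

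The annotated microRNAs are the only places among the members for which RefSeq gives a sequence in the tables used here (GRCh38.p14). They are shown because peaks overlap each of them, in whole or in part, in at least 2 lists. MIR10396B lies in the 5′ ETS of RNA45SN1, at bases 3103 onward, and MIR3648-2 and MIR10396A lie outside the annotated repeats. All are on the plus strand and capitals mark the seed, bases 2 to 8. The hairpins are in lower case throughout.
MIR10396B hairpin, chr21:8436324-8436374: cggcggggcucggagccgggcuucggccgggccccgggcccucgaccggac
MIR10396A hairpin, chr21:8987617-8987665: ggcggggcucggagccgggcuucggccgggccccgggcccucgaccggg
hsa-miR-10396b-5p: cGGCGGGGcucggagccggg
hsa-miR-10396a-5p: gGCGGGGCucggagccggg
hsa-miR-10396b-3p: gGCCCCGGgcccucgaccggac
hsa-miR-10396a-3p: gGCCCCGGgcccucgaccggg
hsa-miR-3648, chr21:8987026-8987046: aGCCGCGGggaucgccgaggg

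The seed GCCCCGG is shared by hsa-miR-10396b-3p and hsa-miR-10396a-3p. The 5p arms of MIR10396A and MIR10396B have different seeds, GCGGGGC and GGCGGGG, and each begins at the first base of its own hairpin. A peak shows RNA from this stretch of either precursor. It does not show a mature microRNA.

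The members made up 7.80% of the 2744 peaks of HSPA1A replicate 1 and 14.9% of the 2059 peaks of HSPA1A replicate 2. In the HSPA8 lists they made up 6.58% of 3131 peaks in replicate 1 and 16.3% of 2040 peaks in replicate 2. As counts these are 214, 306, 206 and 333 peaks; wherever 4 values are given together, they follow this order of lists. The 95% Wilson intervals of the shares, which cover counting error over peaks only, were 6.85 to 8.86, 13.4 to 16.5, 5.76 to 7.50 and 14.8 to 17.99%. Both lists numbered 2 lay above both lists numbered 1, whichever the bait. The HSPA8 lists also hold 353 and 617 peaks on scaffolds that the HSPA1A lists do not name, and these count in the totals, ranks and backgrounds below. Over the chromosomes listed in all 4 files the shares were 7.80, 14.9, 7.42 and 23.4%. Read depth is unknown for all 4 lists, and per the labels the second replicate served the authors only to find common peaks.

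The peaks lay on the transcribed strand. All 974 peaks in or beside the repeat were on the plus strand, on which 18S, 5.8S and 28S follow each other, as were all members in 3 lists. The exception was 1 of 306 peaks in HSPA1A replicate 2, a 39-base minus-strand peak with a score of 5 at chr21:6484654-6484692, inside the genes LOC102724701 and LOC102724594 and far from any repeat. Over all peaks of the lists the plus strand held 54.9 and 63.7% in HSPA1A replicates 1 and 2, and 58.9 and 79.4% in HSPA8 replicates 1 and 2 (54.5 and 71.1% without the scaffolds). Against the other peaks of the same list, the members' plus-strand share was higher in 4 of 4 lists, by 39.95 ± 10.6 percentage points (mean ± SD, n = 4; exact sign-flip test, two-sided, p = 0.125, the smallest that 4 lists allow). No count of antisense peaks can be set against it in the repeat, since none was listed. All annotated repeats of this stretch run along the plus strand. The choice of region therefore largely fixed the comparison with the other peaks in advance, and its p-value adds no support.

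The 5′ ETS held more members than any other class in every list, and ITS1 and ITS2 came next. Its peaks numbered 115 and 158 with HSPA1A and 105 and 157 with HSPA8, or 535 of 1059 in all (50.5%). ITS2 held 185 peaks (17.5%), ITS1 176 (16.6%), 5.8S 32 (3.02%), the 3′ ETS 30 (2.83%) and the intergenic spacer 16 (1.51%). The 5′ ETS is also the longest transcribed part without a mature rRNA.

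**Figure D1:**
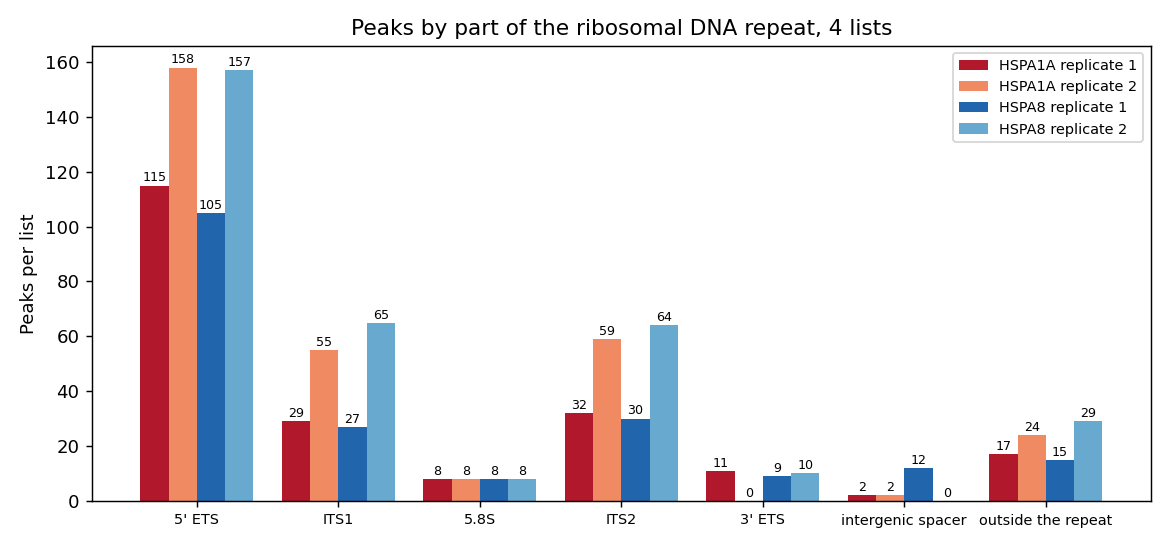
Number of peaks per list (vertical axis) in each part of the ribosomal DNA repeat (horizontal axis), over all copies. Each bar is 1 list, so there is no error bar; the 5′ ETS bars reach 115, 158, 105 and 157 peaks, while 5.8S has 8 peaks in every list.

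By covered length the transcribed spacers were closer to each other. Peaks covered 86.8, 68.8, 82.2 and 64.1% of the 5′ ETS in the 2 HSPA1A lists and then the 2 HSPA8 lists, in that order, summed over the 4 copies. They covered 78.3, 72.8, 77.0 and 81.4% of ITS1 and 73.2, 75.7, 61.8 and 81.4% of ITS2. 5.8S was covered over 100, 94.9, 100 and 93.5% of its length. The 3′ ETS was covered over 73.5 and 0% in the HSPA1A lists and over 77.1 and 63.5% in the HSPA8 lists. Bases under a peak in all 4 lists made up 50.6% of the 5′ ETS, 52.6% of ITS1, 51.8% of ITS2 and 93.5% of 5.8S. With the peaks that cross into 18S and 28S kept as well, the longest stretch of RNA45SN1 without a peak in any list measured 28 bases in the 5′ ETS, 49 in ITS1, 12 in ITS2 and 34 in the 3′ ETS.

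Each deposited peak carries a whole-number score set by the authors whose meaning is not stated. It was used only within a list, as a percentile rank among all peaks of that list. Members had a median rank of 83.7 and 51.5% in HSPA1A replicates 1 and 2, and of 79.0 and 40.7% in HSPA8 replicates 1 and 2. The 18S and 28S peaks of the same stretch ranked at 95.5, 85.6, 94.9 and 79.8% in that order. Members ranked lower than 18S and 28S in 4 of 4 lists, with a difference of -25.2 ± 13.4 points (mean ± SD, n = 4; exact sign-flip test, two-sided, p = 0.125, the smallest possible). In the top 10% by score were 23 of 214, 5 of 306, 11 of 206 and 8 of 333 members, against a background of 10.0% of all peaks in each list, and 158 of 180, 87 of 272, 127 of 150 and 55 of 263 of the 18S and 28S peaks. Without the scaffolds the members' median ranks in the HSPA8 lists were 85.2 and 45.6%, and 30 of 206 and 8 of 333 members were in the top 10%. Member peaks were also narrower than 18S and 28S peaks in every list, with median widths of 93.5, 55, 93 and 52 bp against 123.5, 63, 148 and 73 bp. They were wider in both lists numbered 1 than in both numbered 2.

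**Figure D2:**
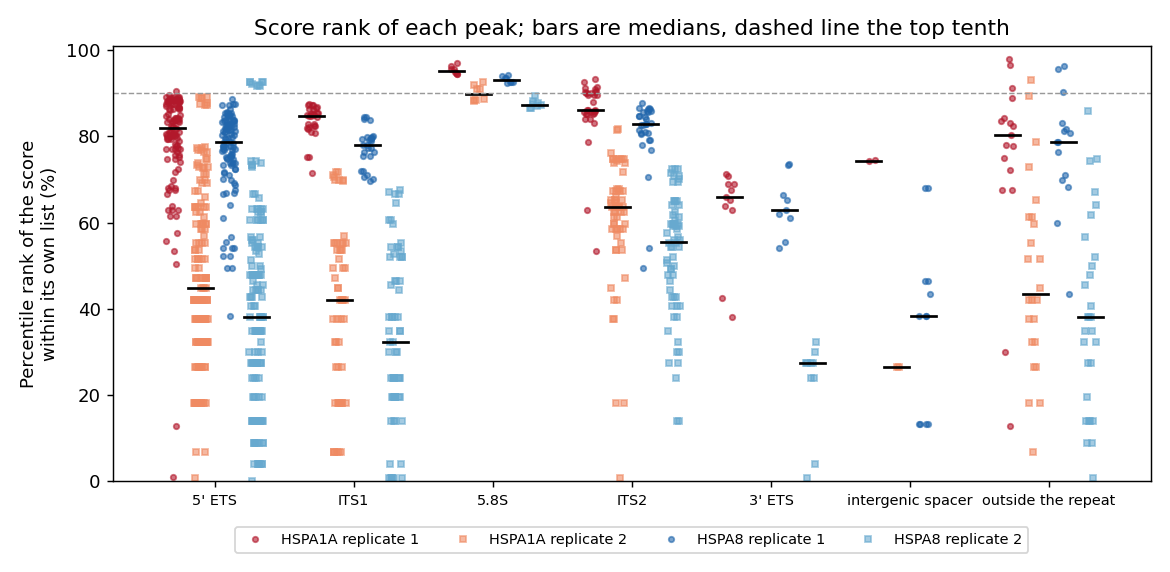
Percentile rank of each peak's score within its own list, in percent (vertical axis), by part of the repeat (horizontal axis); each point is 1 peak, black bars are medians and the dashed line marks a rank of 90%. The 5.8S peaks form a narrow band with list medians of 95.3, 89.8, 93.1 and 87.4%, while the 5′ ETS peaks of the lists numbered 2 spread from near 0 to above 89%.

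5.8S rRNA, which pairs with 28S in the large ribosomal subunit, had the same pattern in all 4 lists and on all 4 copies: 2 peaks per copy. On RNA5-8SN1 (chr21:8439822-8439978) the first peak began 5 bases upstream of the annotated start in HSPA1A replicate 1 and in both HSPA8 lists, and 3 bases upstream in HSPA1A replicate 2. It ended at base 77 and 74 of the gene in HSPA1A replicates 1 and 2, and at base 79 and 73 in HSPA8 replicates 1 and 2. The second peak ran to base 157, 158 and 157 in the first 3 of these lists, which is the end of the gene within 1 base, and to base 187 in HSPA8 replicate 2, 30 bases into ITS2. The second peak began on the next base in both lists numbered 1, at bases 78 and 80, and after a gap in both lists numbered 2, at bases 83 and 85. On RNA5-8SN2, RNA5-8SN3 and RNA5-8SP10 the first peak started at the same distances. Their second peak started within 1 base of that on RNA5-8SN1 in each list.

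The first 5.8S peak of RNA45SN1 scored 1372 and 181 in HSPA1A replicates 1 and 2, and 1905 and 138 in HSPA8 replicates 1 and 2. The second peak scored 1010, 132, 1487 and 129. The highest score was on RNA5-8SP10 of the partial copy in each list, at 1492, 185, 2013 and 148. All 8 peaks of both lists numbered 1 were in the top 10% by score, as were 4 of 8 in HSPA1A replicate 2 and 0 of 8 in HSPA8 replicate 2, whose 8 peaks ranked between 86.5 and 89.4%. The first 5.8S peak outscored the second on RNA45SN1 in 4 of 4 lists. All 8 peaks of each list overlapped a 5.8S peak of the other 3 lists by at least 50% of both, which held for 9.23 to 27.6% of ITS1 peaks, 25.5 to 41.7% of 5′ ETS peaks and 23.4 to 56.3% of ITS2 peaks.

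**Figure D3:**
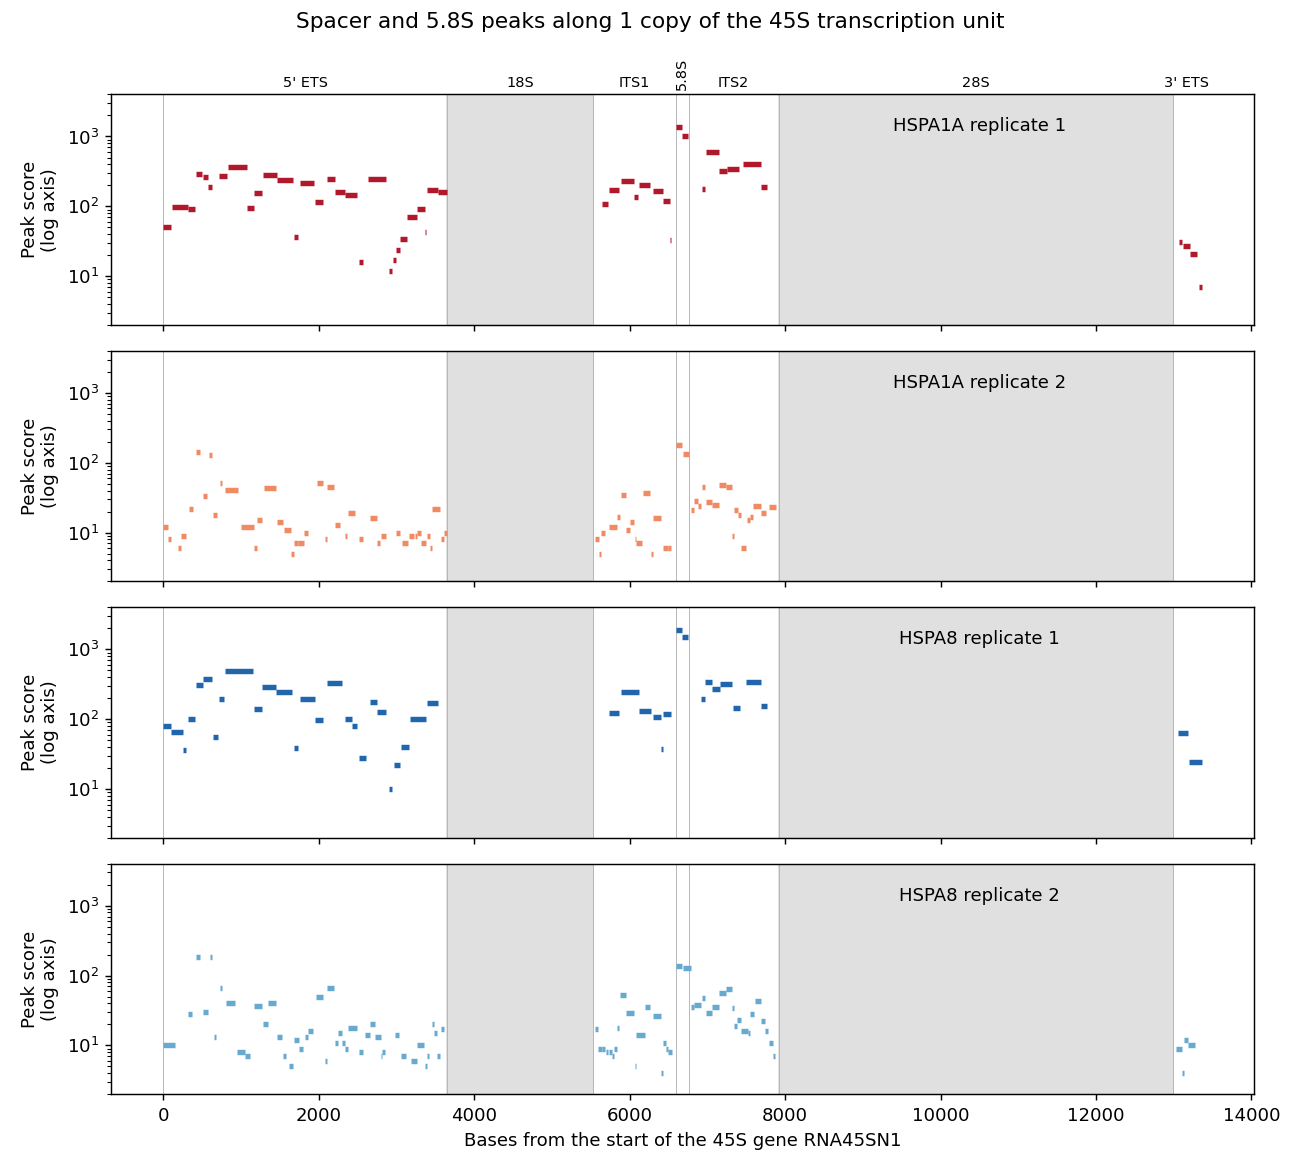
Score of each spacer and 5.8S peak on a log axis (vertical) along RNA45SN1, in bases from the start of the 45S gene (horizontal), with 1 panel per list. Bars span the peak; grey marks 18S and 28S, whose peaks are not drawn. The first 5.8S peak stands highest in 3 panels, and in HSPA8 replicate 2 the 5′ ETS peaks at 184 stand above the 5.8S peak at 138.

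In the 5′ ETS, whose first part is cut early in processing of the precursor, a peak starting at base 425 or 426 had the highest mean rank among positions with a peak in every list. On RNA45SN1 it lay at chr21:8433646-8433729 in its widest form. It scored 287 and 141 in HSPA1A replicates 1 and 2 and 307 and 184 in HSPA8 replicates 1 and 2, with ranks of 89.1, 89.1, 85.5 and 92.6%. Its start differed by at most 1 base between lists while its end varied from base 471 to base 508. The start recurred within 2 bases in all 12 combinations of 4 lists and 3 full copies. The copies are near-identical, so these combinations rest on 4 lists and are not 12 independent cases. The starts looked for were those of HSPA1A replicate 1 on RNA45SN1. Starts within 2 bases of the 45S start, of base 1458 and of base 2107 recurred as often.

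The first of these marks the annotated start of the 45S gene. The peak there scored 50, 12, 81 and 10 on RNA45SN1 and began at base 0 (the base before the annotated start), 1, 0 and 2 in the 2 HSPA1A lists and then the 2 HSPA8 lists. The peak near base 1458 scored 238 and 14 in HSPA1A replicates 1 and 2, and 248 and 13 in HSPA8 replicates 1 and 2. Its rank was thus lower in the lists numbered 2, at 51.5 and 34.9% against 87.4 and 83.9%. At base 425 the lists numbered 2 ranked at least as high as those numbered 1 of their bait.

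Another narrow peak lay further along the same 5′ ETS in 3 lists. It ran over bases 579 to 631 in HSPA1A replicate 1, with a score of 192, over bases 590 to 625 in HSPA1A replicate 2, with a score of 128, and over bases 596 to 625 in HSPA8 replicate 2, with a score of 184. Between it and the peak at base 425 each of these lists had a further peak. That peak ran over bases 506 to 578 in HSPA1A replicate 1 (score 263) and 511 to 564 in HSPA1A replicate 2 (33). In HSPA8 replicate 2 it ran over bases 508 to 571 (30). The peak from base 579 in HSPA1A replicate 1 thus directly followed a higher one. In HSPA8 replicate 1 bases 509 to 629 formed a single broad peak with a score of 370. The highest 5′ ETS peak of RNA45SN1 was a broad one in both lists numbered 1, over bases 831 to 1072 in HSPA1A (score 361) and 795 to 1152 in HSPA8 (score 487). In both lists numbered 2 the peak at base 425 was the highest of this 5′ ETS or tied for it. In HSPA8 replicate 2 it exceeded the 5.8S peaks, and 8 of its 157 peaks in the 5′ ETS were in the top 10% by score, against 1 of 115, 0 of 158 and 0 of 105 in HSPA1A replicates 1 and 2 and HSPA8 replicate 1. Without the scaffold peaks, which HSPA8 lists alone hold, it was 8 of 157 in HSPA8 replicate 2 and 10 of 105 in HSPA8 replicate 1. The background was 10.0% of all peaks in each list. The peak at base 425 was among the 8 of HSPA8 replicate 2 on each copy. These counts thus hold near-identical copies of the same position, which are not independent.

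The microRNA gene MIR10396B near the 3′ end of the 5′ ETS overlapped a peak in all 4 lists, in HSPA8 replicate 2 only in part. The best peak over its 5p arm scored 34, 7, 40 and 7, with ranks of 71.8, 26.5, 70.2 and 13.9%. The 3p arm was under a peak in 3 lists and had none in HSPA8 replicate 2. MIR3648-1, in the 5′ ETS of RNA45SN2 at chr21:8208473-8208652, had 3 peaks in every list with best scores of 318, 20, 180 and 26. The lists numbered 1 gave the higher ranks at MIR10396B, and the best peak of MIR3648-1 was also highest in HSPA1A replicate 1.

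ITS1, which lies between 18S and 5.8S and whose cleavage parts the precursors of the 2 subunits, had its best supported peak at base 360. On RNA45SN1 it began at chr21:8439104 in 3 lists and 1 base earlier in HSPA8 replicate 2. Scores were 232 and 35 in HSPA1A replicates 1 and 2, and 246 and 52 in HSPA8 replicates 1 and 2, with ranks of 87.3, 71.0, 83.8 and 67.5%. It was the highest ITS1 peak of RNA45SN1 in 3 lists. In HSPA1A replicate 2 a peak over bases 644 to 743 scored 37. Of the 176 ITS1 peaks, 0 were in the top 10% of any list, and median ranks were 84.8, 41.9, 78.1 and 32.3%. The longest uncovered stretch of ITS1, bases 1024 to 1072, lies directly before the first 5.8S peak.

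ITS2, between 5.8S and 28S, had higher median ranks than ITS1 in 4 of 4 lists, at 86.1, 63.7, 83.0 and 55.6%. In the middle of the spacer on RNA45SN1 every list had a peak over bases 491 to 557. The peak ran over bases 491 to 648 in HSPA1A replicate 1 (score 347) and 488 to 557 in HSPA1A replicate 2 (45). It ran over bases 408 to 563 in HSPA8 replicate 1 (322) and 489 to 557 in HSPA8 replicate 2 (64). In HSPA1A replicate 2 the adjoining peak over bases 395 to 487 scored higher, at 48. In HSPA1A replicate 1 a peak over bases 221 to 392 reached 592, and 11 of 32 ITS2 peaks were in the top 10% by score. In the other 3 lists 0 of 59, 0 of 30 and 0 of 64 were, and the count for HSPA8 replicate 1 was 9 of 30 without its scaffold peaks.

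The 3′ ETS, the short spacer after 28S, was seen in 3 lists. The HSPA1A lists had 11 and 0 peaks there, and the HSPA8 lists 9 and 10. The best peaks on RNA45SN1 scored 31, 63 and 12 in the 3 lists that had any, with ranks of 70.9, 73.4 and 32.3%. The first 34 bases after 28S of RNA45SN1 had no peak in any list, crossing peaks included. In HSPA1A replicate 2 the absence held on all 3 full copies.

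The intergenic spacer, counted up to 50 kb from a 45S gene, held 2, 2, 12 and 0 peaks. The position in most lists lay 9731 bases before RNA45SN2, at chr21:8196257-8196291 inside the long non-coding RNA gene LOC124904993, with a counterpart 9733 bases before RNA45SN3. These peaks were 30 to 35 bases wide. The one before RNA45SN2 scored 45 and 7 in HSPA1A replicates 1 and 2, and 33 in HSPA8 replicate 1, with ranks of 74.5, 26.5 and 68.0%. HSPA8 replicate 2 had no peak there.

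The other 10 spacer peaks were all in HSPA8 replicate 1 and overlapped no member of another list. They repeat over the copies: a 91-base peak with a score of 5 lay 414 bases before each of the 3 full 45S genes and 416 bases before the assumed start of the partial copy. The remaining 6 lay 793 to 817 and 1525 to 1589 bases after the ends of the 3 full copies, with scores of 7 to 9 and ranks of 38.2 to 46.5%. MIR6724-2 and MIR6724-4, microRNA genes in the spacer upstream of the partial copy and of RNA45SN1, had a peak in 0 lists.

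Of the 85 peaks outside the repeats, 81 fell in a single stretch, chr21:8986620-8988736, which holds MIR3648-2 and MIR10396A. It carried 15, 23, 14 and 29 peaks, all on the plus strand. MIR3648-2 had 3, 3, 3 and 4 of them, with best scores of 286, 20, 171 and 25, beside 318, 20, 180 and 26 for MIR3648-1 in the repeat. The mature hsa-miR-3648 was under a peak in all 4 lists, scoring 66, 20, 151 and 22. MIR10396A was overlapped in part in 3 lists, by peaks with scores of 24, 34 and 7 that ended inside its hairpin. It had no peak in HSPA1A replicate 2.

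In the repeats MIR10396B lies 552 bases before RNA18SN1, and MIR3648-1 lies 1158 bases before RNA18SN2. The same distances from MIR10396A and MIR3648-2 give positions 8988169 and 8988157 in the outside stretch. No 18S gene is annotated there in the table, and no genome sequence was used to look for one. The 12, 19, 11 and 23 peaks before this place scored 24 to 286, 6 to 24, 17 to 210 and 4 to 39. The 3, 4, 3 and 6 peaks after it scored 407 to 1874, 40 to 203, 853 to 2600 and 31 to 119. Every peak after it was above every peak before it in 3 lists, and in HSPA8 replicate 2 the ranges met. The first peak after it was 217 bases wide in HSPA1A replicate 1 and began at 8988172. In that list the first peak of RNA18SN2 and of RNA18SN3 was also 217 bases wide, starting at base 1 of the gene. That of RNA18SN1 and of RNA18SP5 was 54 bases wide. In HSPA1A replicate 2 the first peak after the place was 172 bases wide, against 177 on RNA18SN2. The widths were 217 against 216 in HSPA8 replicate 1 and 98 against 125 in HSPA8 replicate 2. In these 3 lists the first peak of RNA18SN1 was 57, 56 and 86 bases wide, and that of RNA18SP5 57, 55 and 86. The members thus include 16 peaks from this place on, and the highest member score of HSPA1A replicate 1, HSPA1A replicate 2 and HSPA8 replicate 1 (1874, 203 and 2600) is among them.

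**Figure D4:**
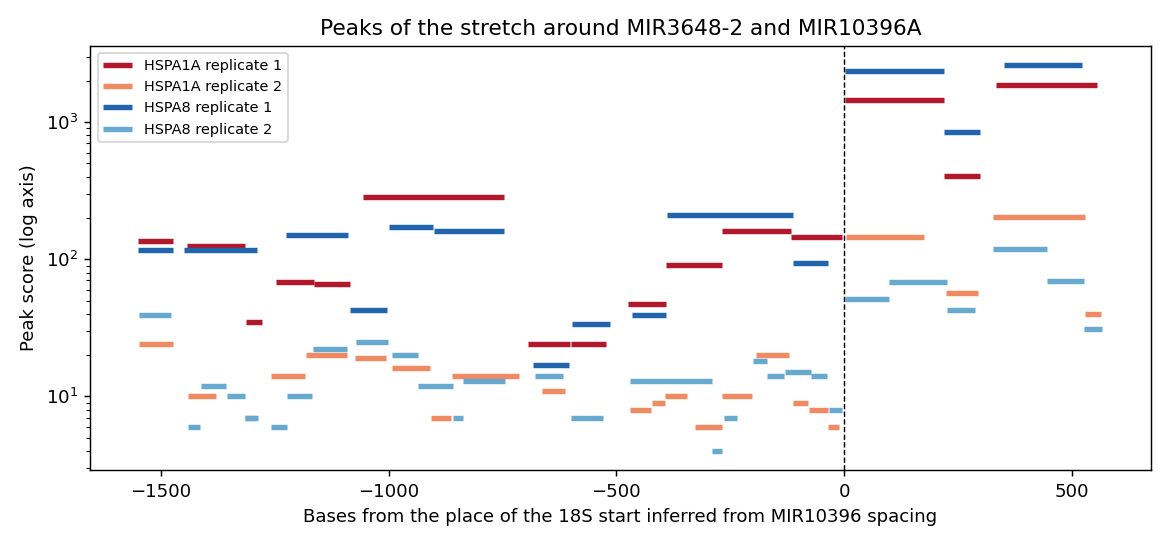
Score of each peak on a log axis (vertical) in the stretch that holds MIR3648-2 and MIR10396A, against bases from the place where 18S would start by the spacing of MIR10396B and RNA18SN1 (horizontal; dashed line at 0). Bars span the peaks of the 4 lists; in 3 lists the bars right of the line all stand higher than those left of it, in HSPA1A replicate 1 at 407 to 1874 against at most 286, and in HSPA8 replicate 2 the ranges meet, with 31 right of it and 39 left of it.

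The other 4 outside peaks were scattered and low. Besides the minus-strand peak, HSPA1A replicate 1 had a peak with a score of 5 in LINC01666 at chr21:8796477-8796551. A place near 8847025 without a gene had a score of 6 in HSPA1A replicate 1 and 8 in HSPA8 replicate 1.

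Whether the baits differed in their spacer RNA was tested over lists. The members' share was 11.3 ± 4.99% for HSPA1A and 11.5 ± 6.89% for HSPA8 (mean ± SD, n = 2 each), -0.12 percentage points apart (two-sided exact permutation, p = 1). Within number 1 the baits were 1.22 points apart, and within number 2 they were -1.46 points apart. Over the chromosomes listed in all 4 files the difference was -4.08 points (exact permutation, p = 1). The -0.12 points turned to 3.41 without HSPA1A replicate 1 and to 4.75 without HSPA8 replicate 2. Counts averaged 260 ± 65.1 peaks for HSPA1A and 269.5 ± 89.8 for HSPA8 (two-sided exact permutation, p = 1). These differences were smaller than the spread between replicates, and no test of 2 against 2 lists can give a p below 0.33.

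Among the 7 classes, the lists of the baits separated in 1, the 5′ ETS (14.3% of the classes). Its share of the members was 53.7 and 51.6% in HSPA1A replicates 1 and 2, and 51.0 and 47.1% in HSPA8 replicates 1 and 2. The means were 52.7 ± 1.49% and 49.1 ± 2.70% (SD, n = 2), 3.63 percentage points apart (two-sided exact permutation, p = 0.33, 1 after Benjamini-Hochberg adjustment over the classes). The 95% Wilson intervals of the 4 shares overlap, from 47.0 to 60.3% in HSPA1A replicate 1 and from 41.9 to 52.5% in HSPA8 replicate 2. They take peaks as independent, which peaks on near-identical copies are not, so they do not measure the spread between replicates. The direction held in all alternatives tried, between 1.72 and 5.54 points, but the lists overlapped with only the higher-scoring part of each list, with equal numbers of top-scoring peaks, with neighbouring peaks merged and with covered bases in place of peaks. The adjusted p of the exact permutation test was 1 for the other 6 classes too. For the intergenic spacer the lower mean of HSPA1A, 0.794% against 2.91%, rested on HSPA8 replicate 1: without it the difference turned from -2.12 to 0.794 points. For the 3′ ETS it turned from -1.12 to 1.45 points without HSPA1A replicate 2.

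In every list, members overlapped a peak of the other replicate of their bait by 1 bp or more at a higher share than peaks at large, but not in every list by 50% of both peaks. Of the members, 191 of 214 (89.3%, Wilson interval 84.4 to 92.7) and 287 of 306 (93.8%, 90.5 to 96.0) in HSPA1A replicates 1 and 2 had a same-strand member of the other replicate over 1 bp or more. In HSPA8 replicates 1 and 2 it was 181 of 206 (87.9%, 82.7 to 91.6) and 297 of 333 (89.2%, 85.4 to 92.1). The background over all peaks was 47.6 and 72.6% for HSPA1A and 39.3 and 84.7% for HSPA8 (32.9 and 81.7% without the scaffolds). Members were above it in 4 of 4 lists, by 29.0 ± 20.0 points (mean ± SD, n = 4; exact sign-flip test, two-sided, p = 0.125, the smallest possible). They were below the 18S and 28S peaks, with 98.3, 97.1, 99.3 and 96.6%, in 4 of 4 lists (mean difference -7.80 ± 3.45 points; exact sign-flip test, p = 0.125). Peaks on near-identical copies are not independent, so the Wilson intervals cover counting error only. Peaks cover most of the spacers, so overlap by 1 base is easily met here. With an overlap of at least 50% of both peaks, 62.6, 43.8, 56.3 and 34.8% of the members had a partner in the other replicate. The background over all peaks was 41.5, 55.4, 31.6 and 48.4%. On that criterion members were above the background in both lists numbered 1 and below it in both lists numbered 2.

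For the members, mean overlap between baits was no lower than within them. Taking the shorter list of each pair, the mean overlap was 88.6% within baits and 91.2% between baits, a difference of -2.64 points (exact permutation over 3 splits, p = 1). With the 50% overlap it was 59.5 and 68.3% (exact permutation over 3 splits, p = 0.667). Among all peaks, scaffolds included, overlap by 1 bp or more in the shorter list was 72.6 and 84.7% within baits. Between baits it was 58.3 to 65.5%. For the 18S and 28S peaks it was 98.3 and 99.3% within baits and 97.3 to 99.6% between them. With the 50% overlap, the highest overlaps of members joined lists of the same number. They were 79.1% for both lists numbered 1 and 73.5% for both numbered 2, against 56.3 to 62.6% for the other 4 pairs. Among all peaks the same-number pairs had 51.1 and 55.8%, against 45.2 to 55.4% for the other pairs. The 18S and 28S peaks had 96.7 and 84.8%, against 74.0 to 86.7%. Along the 6416 spacer and 5.8S bases of RNA45SN1, Spearman's rho of the score per base was 0.80 and 0.68 between lists of the same number and 0.44 to 0.53 for the other pairs. This is given as a description, since neighbouring bases share peaks. The labels do not say what lists of the same number have in common.

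The copies gave nearly the same picture. Of the peaks on the spacers and 5.8S of RNA45SN1, 95.9, 88.2, 97.7 and 89.5% had an overlapping peak at the matching position of both RNA45SN2 and RNA45SN3. Starts agreed within 10 bp in all 3 copies for 57.1, 61.8, 65.1 and 60.5%. At base 425 the scores on the 4 copies of a list differed little, from 266 to 287 in HSPA1A replicate 1 and from 181 to 184 in HSPA8 replicate 2.

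Near base 2107 the stretch was cut into peaks differently on the copies. On RNA45SN1 a single peak began there and scored 249 and 45 in HSPA1A replicates 1 and 2, and 333 and 66 in HSPA8 replicates 1 and 2; on the partial copy it scored 245, 45, 309 and 66. On RNA45SN2 the peak with that start scored 24, 6, 12 and 7, and on RNA45SN3 25, 5, 12 and 7, and a second peak followed. In HSPA1A replicate 1 the first peak ended at base 2143 on RNA45SN2 against base 2207 on RNA45SN1. The second peak on RNA45SN2 scored 59 and 22 in HSPA1A replicates 1 and 2, and 155 and 37 in HSPA8 replicates 1 and 2, also below the single peak of RNA45SN1. The difference in score thus goes with a difference in peak borders, whose part in it was not tested.

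**Figure D5:**
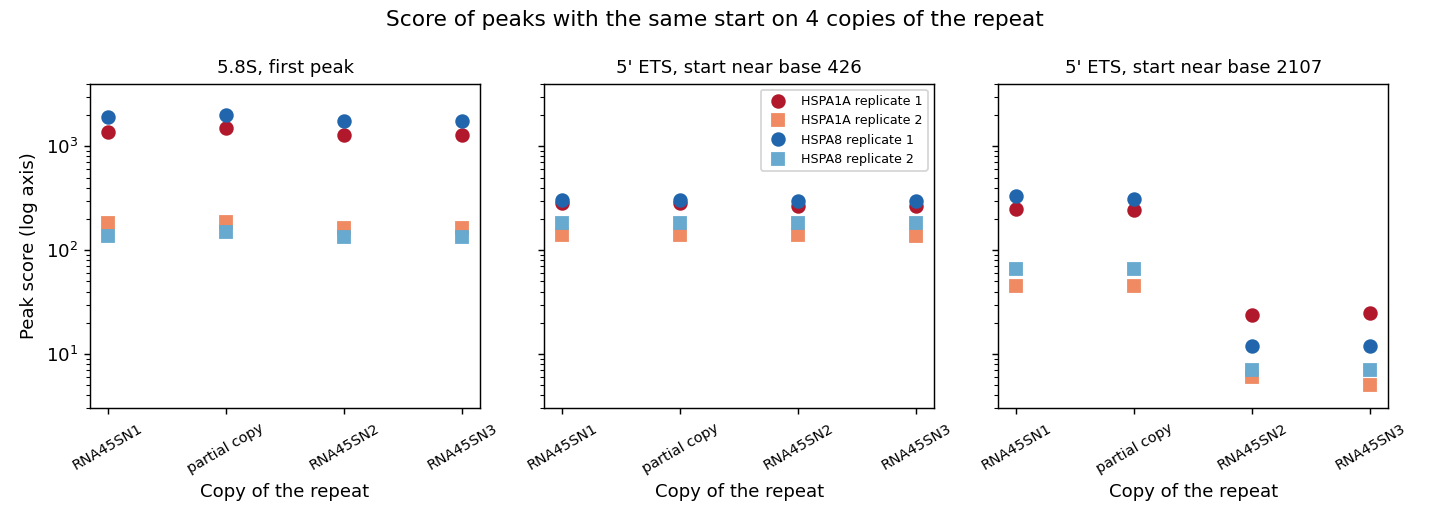
Score on a log axis (vertical) of peaks with the same start on 4 copies of the repeat (horizontal), for the first 5.8S peak and for 2 peaks of the 5′ ETS; each point is 1 peak of 1 list. Scores are nearly level over the copies for 5.8S and near base 426, and near base 2107 they drop on RNA45SN2 and RNA45SN3, in HSPA1A replicate 1 from 249 to 24, where the peaks were cut shorter.

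At the border of the rule, 7, 8, 10 and 13 peaks that cross from a spacer into an 18S or 28S gene were left out, with median scores of 677, 66.5, 544 and 47. Just inside it, 4 members in each HSPA1A list came within 10 bp of such a gene, with median scores of 163 and 10, and 0 in the HSPA8 lists. The limit at position 9000000 lies in a wide gap: the last member started between 8988503 and 8988698 and the next peak at 9097761 or beyond.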

How the data were processed

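The authors deposited a list of peaks for each replicate, with position, strand and a whole-number score per peak. The unit of that score is not stated. Per the submitters' processing notes, Trim Galore 0.4.4, FastQC, STAR 2.6.0b and deepTools were used with GRCh38. How peaks were called, at which threshold, and how reads with several matches were handled is not given in the sources used here. Per the labels, random tags served to merge PCR duplicates. Depth is unknown.

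Peaks were made 1-based and set against the RefSeq gene table of GRCh38.p14. A peak went to the class holding most of its bases. Lists were compared between baits by exact permutation of the bait labels, and members with other peaks of their list by exact sign flips over the lists, a comparison added after the data were seen. Overlap meant at least 1 bp on the same strand. The named positions are the 45S and 5.8S genes, other genes under members in at least 2 lists, and per class the position in most lists with the highest mean score rank. Members and lists were chosen with earlier results of these data known. Tables were handled in pandas 2.3.3 under Python 3.11.15, tests run with scipy 1.17.1 and numpy 2.4.6, and figures drawn with matplotlib 3.10.9; the class assignment and overlap were tested on simulated data. Alternatives were a stricter score, equal list lengths, a lone copy, merging, covered bases, other borders and classes, leaving out each list in turn, and blocking by replicate number.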

Additional observations from a re-analysis of the deposited data

Results flagged for a closer look

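Ribosomal DNA peaks outside the members appear on scaffolds that only the HSPA8 lists name. HSPA8 replicate 1 had 329 peaks and HSPA8 replicate 2 had 609 on the scaffolds KI270733.1 and GL000220.1, all on the plus strand, and the HSPA1A lists had 0. At the positions the RefSeq table gives for RNA45SN4 and RNA45SN5 lay 85 and 84 of these peaks in HSPA8 replicate 1 and 155 and 154 in HSPA8 replicate 2, although the table names no scaffold for those genes. They are not members, but with the other scaffold peaks, 353 and 617 in all, they are part of the HSPA8 list totals and so of the shares, ranks and backgrounds over all peaks. Over the chromosomes listed in all 4 files the members made up 7.80 and 14.9% with HSPA1A and 7.42 and 23.4% with HSPA8.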

How the results depend on the processing

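Of 156 recomputed values, 121 were classed as unchanged. For differences between lists this meant the same direction only, since exact tests on so few lists cannot cross a significance threshold. For replicate overlap it meant a value within the Wilson interval. For score ranks and positions across copies it meant a value within the SD between lists. The difference HSPA1A minus HSPA8 in the members' share, -0.12 points, became 2.93 with scores at or above each list's median and 3.03 with covered bases. Over the chromosomes listed in all 4 files it was -4.08 (exact permutation, p = 1), the share of HSPA8 replicate 2 rising from 16.3 to 23.4%, and the members of HSPA8 replicate 1 in the top 10% by score went from 11 to 30. With the stricter score the difference in counts became 25.0 peaks, that of 5.8S -0.88 points, that of ITS2 -0.98 points and that of the plus-strand share 0. With a lone copy ITS1 became 1.32, ITS2 -0.45, and both the stretch outside the repeat and the plus-strand share 0. With peaks merged within 50 bp ITS1 became 4.71, 5.8S -2.57 and the outside stretch 1.67. With covered bases 5.8S became -0.27 and the outside stretch 0.13. Without the peaks at the 18S place, an alternative chosen after seeing the data, the outside stretch became 0.16. Replicate overlap was 62.6% for HSPA1A and 56.3% for HSPA8 with a reciprocal overlap of 50%, and 94.97 and 91.9% with the stricter score. The share of RNA45SN1 peaks in all 3 copies fell from 92.8% to 61.1% when starts had to match within 10 bp.

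Leaving out 1 list at a time gave -4.99 to 4.75 points for the members' share, -73.0 to 54.0 for the count, -3.76 to 2.66 for ITS1, -0.71 to 0.77 for 5.8S, -2.10 to 2.55 for ITS2, -3.69 to 1.45 for the 3′ ETS, -5.03 to 0.79 for the intergenic spacer, -0.82 to 0.61 outside the repeat and -0.33 to 0 for the plus strand. The direction turned without HSPA1A replicate 1 or HSPA8 replicate 2 for the members' share (3.41, 4.75), the count (36.5, 54.0), ITS1 (1.66, 2.66) and 5.8S (-0.53, -0.71). It turned without HSPA1A replicate 2 or HSPA8 replicate 1 for ITS2 (-1.94, -2.10), without HSPA1A replicate 2 for the 3′ ETS, without HSPA8 replicate 1 for the intergenic spacer and without HSPA8 replicate 2 outside the repeat. The cause was not tested.

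With the replicate number as a block the members' share differed by -0.12 points (exact sign-flip test, p = 1) and the 5′ ETS by 3.63 (exact sign-flip test, p = 0.5, the smallest possible with 2 pairs). Measured from the mean of their bait, lists of equal number deviated with a correlation of 0.73 across the 7 class shares and 0.50 along the bases of RNA45SN1, but the labels give the number no meaning. Unknown depth limits all statements on missing peaks.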
